A study of Homo sapiens with 6 samples.

Results

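The 10 genes described here are keratins of simple epithelia (KRT7, KRT8, KRT18 and KRT19), of the upper layers of stratified epithelia (KRT4, KRT13 and the widely expressed KRT80) and of hair (KRT81, KRT83 and KRT86). They were chosen by symbol and are 10 of the 30178 genes in the table. All 10 were found, each by its Ensembl identifier, and 5 of them (KRT8, KRT18, KRT7, KRT80 and KRT86) had a mean of at least 1 FPKM (fragments per kilobase of gene, scaled to the library total), the level at which genes were tested.

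Keratins are the intermediate filament proteins of epithelial cells. A filament is built from pairs of an acidic type I chain and a basic type II chain, so that KRT18, a type I chain, partners KRT8, a type II chain, in simple epithelia, and KRT14 partners KRT5 in the basal layer of stratified epithelia such as the oral lining. In non-cornified mucosa, cells that leave the basal layer make KRT4 with KRT13. KRT81, KRT83 and KRT86 are type II chains known from the cortex of the hair shaft. KRT8, KRT18, KRT7 and KRT19 are widely used to describe carcinomas.

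The cells were CAL27, an established oral carcinoma line that the labels call adenosquamous, grown in DMEM with serum, antibiotics and the selection drug G418. The lines compared were 3 stable ones: a line with GFP-fused MB21D2 carrying the Q311E substitution (Q311E), a line with the GFP-fused wild-type protein (wild type) and a line with the empty vector (vector). Each gave 2 libraries, A and B. The stated aim was to compare the Q311E form with the wild-type form. The labels do not say whether a line is a clone, which promoter drives the insert, or whether A and B were grown separately, so each p-value measures only the spread between these libraries, which may be technical.

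MB21D2, a protein of the family of the DNA sensor cGAS, had 32.8 and 21.2 FPKM in the Q311E libraries, 104 and 106 FPKM in the wild-type libraries, and 8.32 and 7.15 FPKM in the vector libraries. MB21D2 RNA was thus lower in Q311E than in wild type, so in that comparison the substitution and the dose of MB21D2 RNA cannot be told apart. Library totals lay between 20645410 and 24147306 reads. The Q311E libraries stood apart from each other: the SD over genes of the log2 difference between A and B was 0.436 for Q311E, 0.145 for wild type and 0.192 for vector. Epithelial markers were high in all 6 libraries, with EPCAM at 116 to 167 FPKM, CDH1 at 58.4 to 74.98, SFN at 296 to 383, ITGB4 at 50.8 to 66.4 and TP63 at 14.5 to 32.5 FPKM. Of the 17 listed markers of other cell types, 15 were in the table. Leukocyte markers reached at most 0.0448 FPKM, fibroblast markers at most 1.85 FPKM (COL1A1), with COL3A1 and DCN at most 0.114 FPKM, and melanocyte and muscle markers at most 0.320 FPKM. CDH5 was the exception at 15.4 to 35.2 FPKM, with the other endothelial markers PECAM1 at most 0.317 and VWF at most 0.0801 FPKM. In such bulk RNA, fewer cells that make a keratin and less of its RNA per cell cannot be told apart.

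The hair keratins are close copies, which bears on how far their values can be separated. Over aligned coding sequence KRT81 and KRT86 were 94.2% identical, KRT81 and KRT83 93.4%, and KRT83 and KRT86 91.5%, against 64.6% for KRT8 and KRT18. Of all 100-base stretches of the main KRT86 transcript, 28.3% occur in transcripts of other genes, mostly KRT81, and for KRT81 the share was 30.3%. For KRT83 it was 0.0%. Of 50-base stretches the shares were 39.2% for KRT86, 44.6% for KRT81 and 12.8% for KRT83. The coding stretches below, read from GENCODE release 29 transcripts and placed on GRCh38, show both cases. The first is a window in exon 3 that separates KRT83 from both others, with the 11 bases that differ among the 3 genes in capitals.
KRT86, chr12:52304111-52304170, plus strand: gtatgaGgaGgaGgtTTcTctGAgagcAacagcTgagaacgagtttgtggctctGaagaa
KRT81, chr12:52289216-52289275, minus strand: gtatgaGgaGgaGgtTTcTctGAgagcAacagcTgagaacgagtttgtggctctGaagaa
KRT83, chr12:52317911-52317970, minus strand: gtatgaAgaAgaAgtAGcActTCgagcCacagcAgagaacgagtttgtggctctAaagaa

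In that window KRT86 and KRT81 have the same sequence. Further windows of the same length were compared only where they lay within an exon and aligned without gaps in KRT81, KRT83 and KRT86. Among these, the window in which KRT86 and KRT81 differ most lies in exon 5, where 5 of 60 bases, in capitals, tell them apart. Stretches with gaps or across exon borders were not searched.
KRT86, chr12:52305318-52305377, plus strand: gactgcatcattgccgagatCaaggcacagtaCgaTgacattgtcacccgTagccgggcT
KRT81, chr12:52288011-52288070, minus strand: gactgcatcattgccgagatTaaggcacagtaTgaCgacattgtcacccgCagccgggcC

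How the authors assigned reads that match more than one gene is not given in the sources used here, so the levels of KRT81 and KRT86 are uncertain where their reads could be split or shared. KRT83 is the more separable of the hair keratins. Among the other genes, 16.6% of the 100-base stretches of KRT18 occur in KRT8 transcripts, because the genes lie side by side on opposite strands and share 525 exonic bases. Of 50-base stretches, 37.1% of KRT8 and 47.6% of KRT18 occur in other genes, most often the pseudogene KRT8P3 and KRT8 in turn. KRT7 shares 282 exonic bases with its antisense gene KRT7-AS. Whether counting used strand is likewise not given.

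In every library KRT8 had the highest FPKM of the 10 keratins, followed by KRT18, KRT80, KRT7 and KRT86 in that order. KRT8 and KRT18 lay close to each other in the second Q311E library, at 236 and 234 FPKM. The order of the other 5 genes changed between libraries, and all of their values were under 2 FPKM. The FPKM of KRT8 is divided by 6881 exonic bases, although its main transcript has 1882, so its level is understated against KRT18. Per base of the main transcript, KRT8 reads stood 2.38 and 1.88 times above KRT18 reads in Q311E A and B, 2.16 and 2.17 times in wild type A and B, and 2.45 and 2.27 times in vector A and B. In FPKM these ratios were 1.28 and 1.01 for Q311E, 1.16 and 1.17 for wild type, and 1.32 and 1.22 for vector.

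**Figure D1:**
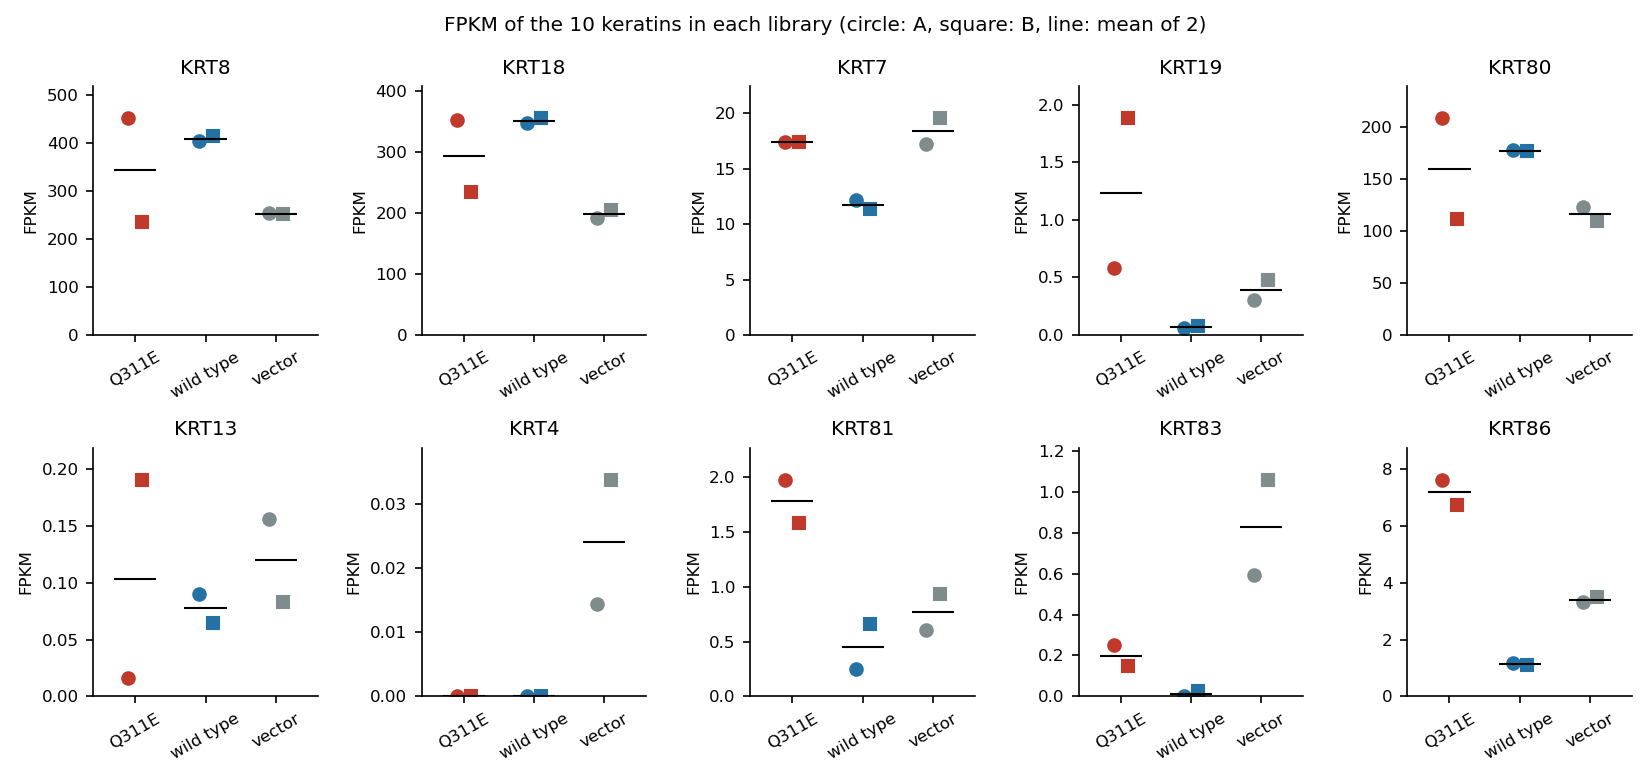
FPKM (vertical axes, each from 0 on its own linear scale) of the 10 keratins in the 6 libraries, with Q311E in red, wild type in blue and vector in grey. Circles are library A, squares library B, and the black line is the mean of 2 libraries. KRT8, KRT18 and KRT80 are high in Q311E A and near the vector level in Q311E B, while KRT86 separates the 3 lines, from 1.12 FPKM in wild type B to 7.62 FPKM in Q311E A.

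The simple epithelial pair and KRT80 followed one pattern. KRT8 had 451 and 236 FPKM in Q311E A and B, 404 and 415 FPKM in wild type, and 254 and 252 FPKM in vector. KRT18 had 354 and 234 FPKM in Q311E, 348 and 356 FPKM in wild type, and 192 and 206 FPKM in vector. KRT80, a type II keratin found at desmosomes and along the cytoskeleton of many epithelia, had 209 and 111 FPKM in Q311E, 178 and 177 FPKM in wild type, and 123 and 110 FPKM in vector. For all 3 genes both wild-type libraries lay above both vector libraries. The Q311E libraries disagreed: A lay at or above the wild-type level and B at or nearer to the vector level. Within Q311E, A exceeded B by 1.91 times for KRT8, 1.88 times for KRT80 and 1.51 times for KRT18, whereas within wild type and vector A and B differed by at most 1.12 times for these genes.

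In the comparison of wild type with vector, KRT8 averaged 409 ± 7.69 FPKM in wild type and 253 ± 1.48 FPKM in vector (SD, n = 2 each), 1.62 times as much. KRT18 averaged 352 ± 5.72 FPKM in wild type and 199 ± 9.62 FPKM in vector, 1.77 times as much, and KRT80 averaged 177 ± 0.694 FPKM in wild type and 116 ± 9.39 FPKM in vector, 1.53 times as much. With all 3 lines in 1 limma fit, which takes 1 spread per gene from all 6 libraries, none of the 3 was called at an adjusted p under 0.05. The log2 fold changes were 0.69 ± 0.29 for KRT8 (SE, adjusted p = 0.174), 0.82 ± 0.20 for KRT18 (adjusted p = 0.0565) and 0.61 ± 0.29 for KRT80 (adjusted p = 0.209). With only the wild-type and vector libraries in the fit, all 3 were called, with SEs of 0.05, 0.06 and 0.07 and adjusted p of 0.000639 for KRT8, 0.000594 for KRT18 and 0.00181 for KRT80. KRT18 was also called after scaling libraries to equal medians (adjusted p = 0.0452) and with limma-voom on recovered reads (adjusted p = 0.0413, or 0.0355 on genes with at least 10 reads). It was not called with a pseudocount of 0.1 (adjusted p = 0.0536) or a required mean of 5 FPKM (0.0517). Nor was it with a replicate block (0.0652) or no filter (0.167).

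That narrower fit also called 45.9% of all 11481 genes tested for wild type against vector, so the calls of these keratins are read against a broad background. All 5 tested keratins were called in it. In the fit of all 3 lines 12.3% of genes were called for wild type against vector (3.54% higher and 8.76% lower), and 2 of the 5 keratins, KRT86 and KRT7, both lower. For all 5 tested keratins the wild-type and vector libraries did not overlap, as was so for 77.0% of all genes tested.

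**Figure D2:**
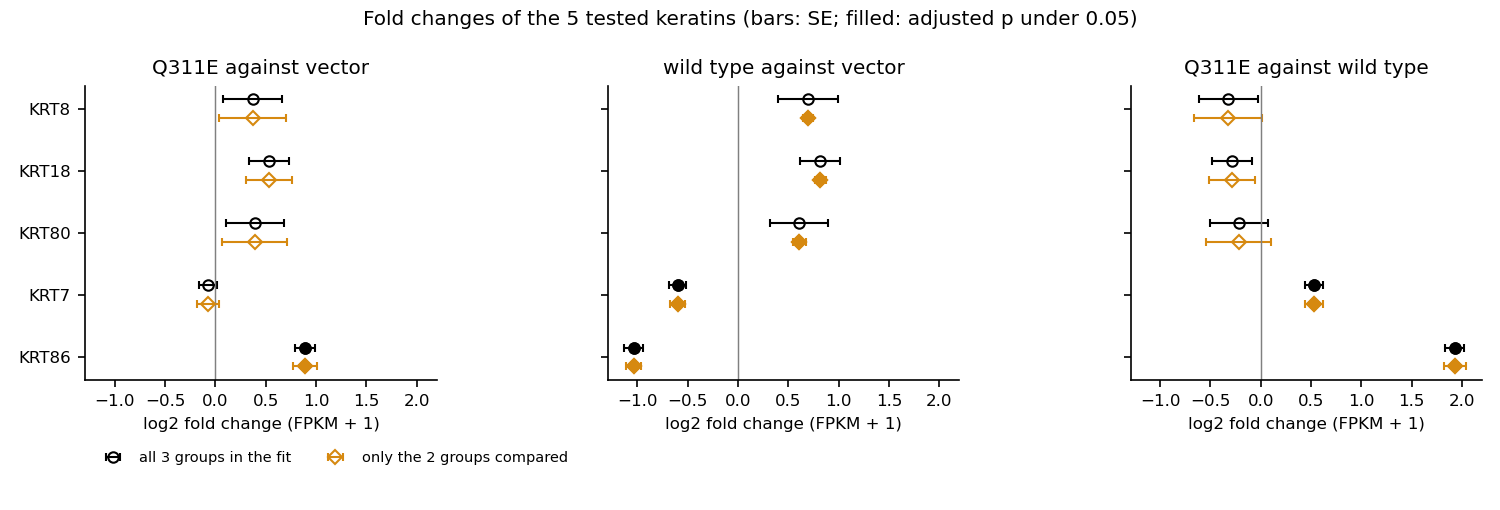
Log2 fold changes on the FPKM + 1 scale (horizontal axis) of the 5 tested keratins in the comparisons of Q311E with vector, wild type with vector and Q311E with wild type. Bars are SEs, filled symbols are calls at an adjusted p under 0.05, black circles come from the fit of all 3 lines and orange diamonds from the fit of the 2 lines compared. In wild type against vector the error bars of KRT8, KRT18 and KRT80 are short, and the symbols filled, only in the fit of the 2 lines.

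Against the vector, the Q311E line averaged 344 ± 152 FPKM for KRT8, 294 ± 84.4 for KRT18 and 160.0 ± 68.8 for KRT80 (SD, n = 2). The log2 fold changes were 0.37 ± 0.29 for KRT8 (adjusted p = 0.41), 0.53 ± 0.20 for KRT18 (adjusted p = 0.123) and 0.39 ± 0.29 for KRT80 (adjusted p = 0.374). Leaving out Q311E A gave -0.094 for KRT8, -0.06 for KRT80 and 0.235 for KRT18. Leaving out Q311E B gave 0.835 for KRT8, 0.827 for KRT18 and 0.841 for KRT80. With 1 Q311E library left the spread came from the other lines, so only effect sizes are given here. Against wild type the log2 fold changes of Q311E were -0.32 ± 0.29 for KRT8 (adjusted p = 0.43), -0.29 ± 0.20 for KRT18 (adjusted p = 0.311) and -0.22 ± 0.29 for KRT80 (adjusted p = 0.585). Without Q311E A the changes against wild type were -0.789 for KRT8, -0.583 for KRT18 and -0.668 for KRT80. Without Q311E B they were 0.141, 0.009 and 0.233. The level of these keratins in the Q311E line therefore rests on which library is read.

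KRT80 kept a nearly fixed proportion to KRT8. The FPKM ratio of KRT80 to KRT8 was 0.462 and 0.471 in Q311E A and B, 0.440 and 0.427 in wild type, and 0.484 and 0.436 in vector. These ratios span a narrower range than either gene did, including between the disagreeing Q311E libraries. KRT80 and KRT8 lie at opposite ends of the type II cluster on chromosome 12 and share almost no sequence, with 0.0% of the 100-base stretches of KRT80 found in another gene. Pseudogenes of KRT8, 18 in the table, held between 178 and 296 reads per library, which is 0.396% to 0.665% of the KRT8 reads.

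KRT7, a type II keratin of ducts and glands, moved in another way. It had 17.4 and 17.4 FPKM in the Q311E libraries, 12.2 and 11.4 FPKM in the wild-type libraries, and 17.3 and 19.6 FPKM in the vector libraries. The wild-type libraries were the lowest, and the Q311E values fell within the vector range. KRT7 fell in wild type against vector (log2 fold change -0.60 ± 0.09, adjusted p = 0.0188) and was higher in Q311E than in wild type (0.53 ± 0.09, adjusted p = 0.0159). Between Q311E and vector the log2 fold change was -0.08 ± 0.09 (adjusted p = 0.582). The call in wild type against vector was lost without a filter on low values (adjusted p = 0.0544). It was also lost without any 1 library of either line, as were nearly all calls over all genes, with log2 fold changes from -0.687 to -0.517. The call in Q311E against wild type was lost, with every other call, when either wild-type library was left out (0.573 without A and 0.481 without B).

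KRT7-AS, the antisense gene inside KRT7, had 1.80 and 1.86 FPKM in Q311E, 0.725 and 0.776 FPKM in wild type, and 1.05 and 1.06 FPKM in vector. It was higher in Q311E than in wild type (0.69 ± 0.10, adjusted p = 0.0114) and than in vector (0.46 ± 0.10, adjusted p = 0.0346). It held 28 to 68 reads per library against 969 to 1668 for KRT7, and without known use of strand the reads of overlapping parts cannot be told apart.

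KRT19, the smallest type I keratin, is common in ductal and glandular cells. It had 29 and 95 reads in Q311E A and B, 3 and 4 reads in wild type, and 17 and 23 reads in vector, or 0.583 and 1.88 FPKM, 0.0563 and 0.0803 FPKM, and 0.301 and 0.477 FPKM. The lines did not overlap, with wild type lowest and Q311E highest, but Q311E B exceeded Q311E A by 3.22 times. Summed over libraries and scaled to the library totals, KRT19 was 18.2 times as high in Q311E as in wild type (95% exact interval 8.59 to 46.3), 3.24 times as high in Q311E as in vector (2.25 to 4.75), and 5.63 times lower in wild type than in vector (2.50 to 14.9). These and the other intervals on read ratios pool the reads of both libraries of a line. They cover counting error only and leave out the spread between libraries, such as the 29 and 95 reads in Q311E. Reads are also not independent molecules, so the intervals are too narrow. In limma-voom on recovered reads of genes with at least 10 reads in all, KRT19 was called for Q311E against wild type (log2 fold change 3.62 ± 1.04, adjusted p = 0.0498), while Q311E against vector (1.40 ± 0.64, adjusted p = 0.198) and wild type against vector (-2.23 ± 1.10, adjusted p = 0.259) were not.

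The oral mucosal pair was near the limit of detection. KRT13 had 1 and 12 reads in Q311E, 6 and 4 reads in wild type, and 11 and 5 reads in vector, and the lines overlapped. KRT4 had 0 reads in both Q311E libraries, 0 reads in both wild-type libraries, and 1 and 2 reads in the vector libraries. A count of 0 allows up to 3 reads in a library. Between Q311E and wild type the KRT13 ratio was 1.34, with an interval of 0.542 to 3.41 from counting error only. With 1 and 12 reads in the Q311E libraries, the spread between libraries adds to that, so differences beyond this range could also be missed. These CAL27 lines held abundant KRT8 and KRT18 RNA and almost none of KRT4 and KRT13.

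KRT86 showed the largest fold changes among the 5 tested keratins. It had 7.62 and 6.74 FPKM in Q311E, 1.17 and 1.12 FPKM in wild type, and 3.32 and 3.48 FPKM in vector, from 388 and 349, 64 and 57, and 192 and 172 reads. The 3 lines did not overlap, with Q311E highest and wild type lowest. KRT86 averaged 7.18 ± 0.618 FPKM in Q311E and 3.401 ± 0.112 FPKM in vector (SD, n = 2 each), 2.11 times as much, and was called (log2 fold change 0.89 ± 0.10, adjusted p = 0.00759). It averaged 1.14 ± 0.0394 FPKM in wild type and 3.401 ± 0.112 FPKM in vector, 2.97 times lower, and was called (-1.04 ± 0.10, adjusted p = 0.0084). In Q311E it was 6.27 times as high as in wild type (1.93 ± 0.10, adjusted p = 0.00164).

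KRT86 was the only one of the 5 tested keratins called in Q311E against vector, where 18.0% of all genes tested were called (8.67% higher and 9.28% lower). In Q311E against wild type, KRT86 and KRT7 were called, both higher, where 27.5% of genes were called (17.5% higher and 10.1% lower). Libraries did not overlap between Q311E and vector for 2 of 5 keratins and 60.1% of all genes, and between Q311E and wild type for 2 of 5 keratins and 70.1% of all genes. With only the 2 lines compared in the fit the same keratins were called, KRT86 for Q311E against vector (background 2.28%) and KRT86 and KRT7 for Q311E against wild type (background 8.47%). Scaling libraries to equal medians moved the median of all genes by -0.106 in Q311E against wild type, on the log2 scale, and left both calls, at 1.82 for KRT86 and 0.42 for KRT7. Under that scaling the share of calls that were higher went to 39.3%, against 63.4% without it, in Q311E against wild type, and to 47.6%, against 28.8%, in wild type against vector. With 1 library left out, the KRT86 call was lost without vector A or B in Q311E against vector (log2 fold changes 0.866 and 0.918). It was lost without any 1 library of either line in wild type against vector (-1.063 to -1.011). In Q311E against wild type it was lost when either wild-type library was left out (1.948 without A and 1.911 without B). Nearly all calls over all genes were lost in the same fits, so these losses are not particular to KRT86.

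The 2 other hair keratins were lower still. KRT81 had 81 and 66 reads in Q311E, 11 and 27 reads in wild type, and 28 and 37 reads in vector, or 1.97 and 1.58 FPKM, 0.25 and 0.656 FPKM, and 0.601 and 0.929 FPKM. Q311E was highest in both libraries, and wild type and vector overlapped. KRT81 had a mean of 0.999 FPKM, just under the level at which genes were tested. In limma-voom on genes with at least 10 reads it was called for Q311E against wild type (1.94 ± 0.47, adjusted p = 0.0308) and not for Q311E against vector (1.18 ± 0.40, adjusted p = 0.105).

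KRT83 did not follow KRT86 and KRT81. It had 10 and 6 reads in Q311E, 0 and 1 reads in wild type, and 27 and 41 reads in vector, so vector was highest and Q311E lay between. The Q311E line held 4.07 times fewer KRT83 reads than vector, scaled to the library totals (95% interval 2.34 to 7.52), while KRT86 reads, scaled alike, were 2.11 times as many in Q311E as in vector. The wild-type line held 67.0 times fewer than vector, with an interval of 11.6 to 2685 from 1 read against 68. In limma-voom KRT83 fell in wild type against vector (-5.17 ± 1.03, adjusted p = 0.0355), while Q311E against vector (-2.02 ± 0.55, adjusted p = 0.0581) and Q311E against wild type (3.14 ± 1.10, adjusted p = 0.0851) were not called. This test of low genes called 12.3% of 19921 genes for Q311E against vector, 6.68% for wild type against vector and 20.8% for Q311E against wild type. KRT83 is also the gene that the exon 3 window above separates from the other hair keratins.

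KRT86 (GRCh38 chromosome 12, 52249300 to 52309163) is annotated over a long span that starts inside the KRT7 locus and reaches past KRT81 on the opposite strand, and its neighbours were also read. KRT87P, a transcribed pseudogene in that span, had 4.52 and 3.28 FPKM in Q311E, 1.43 and 1.71 FPKM in wild type, and 2.58 and 2.92 FPKM in vector, and was called for Q311E against wild type (0.92 ± 0.15, adjusted p = 0.0156). KRT88P had 18 and 23 reads in Q311E, 4 and 5 reads in wild type, and 7 and 7 reads in vector. An antisense gene with no symbol in the table, which overlaps KRT86 (ENSG00000257829), had 3.84 and 2.74 FPKM in Q311E, 0.492 and 0.601 FPKM in wild type, and 1.13 and 1.16 FPKM in vector. It was higher in Q311E than in vector (0.99 ± 0.15, adjusted p = 0.0153) and than in wild type (1.46 ± 0.15, adjusted p = 0.00582). For KRT86, KRT81, KRT87P, KRT88P and this antisense gene both Q311E libraries lay above both wild-type libraries, where Q311E and wild type did not overlap for 70.1% of all genes tested. KRT87P transcripts hold 8.3% of the 50-base stretches of KRT86 and 9.0% of those of KRT81. Use of strand is not known either, so some reads of these genes may be shared. Of the other genes within the span, ENSG00000257830 had 8 and 6 reads in Q311E, 4 and 2 reads in wild type, and 1 and 1 reads in vector, and ENSG00000285102 had 2 and 0 reads in Q311E, 0 and 0 reads in wild type, and 1 and 0 reads in vector. The hair keratins KRT82, KRT84 and KRT85, next along the cluster, had at most 2 reads in any library.

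**Figure D3:**
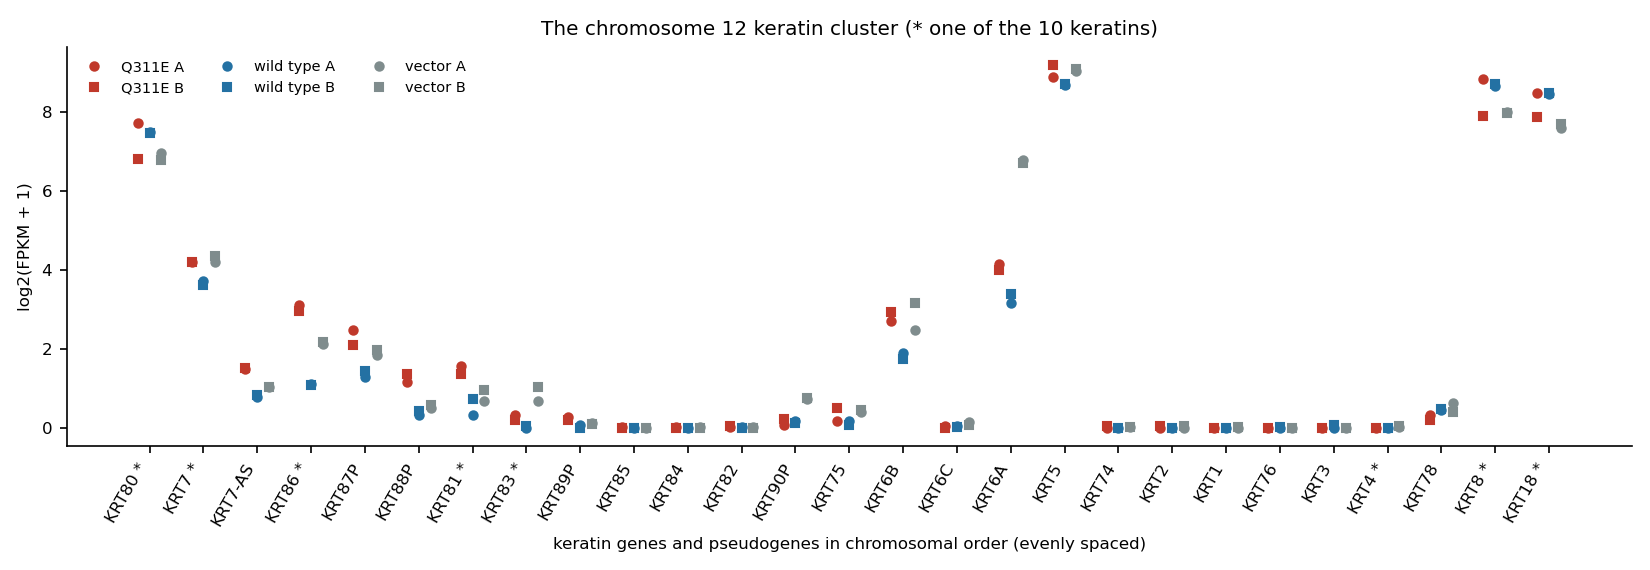
Expression on the log2(FPKM + 1) scale (vertical axis) of the 27 keratin genes, pseudogenes and antisense genes in the chromosome 12 cluster, in chromosomal order and evenly spaced (horizontal axis). Red is Q311E, blue wild type and grey vector, circles are library A and squares library B, and asterisks mark the keratins described here. Values from KRT7-AS to KRT81 are highest in Q311E, KRT83 and KRT6A are highest in vector, and KRT8 and KRT18 at the right end show the disagreement between the Q311E libraries.

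By the smallest root mean square difference of centred log2(FPKM + 1) over the 6 libraries, the tested genes closest to KRT86 were MVD, FDFT1 and IDI1, enzymes of the sterol synthesis pathway. Their distances were 0.034, 0.048 and 0.054 log2 units. MVD had 33.7 and 29.02 FPKM in Q311E, 7.86 and 7.46 FPKM in wild type, and 15.4 and 16.95 FPKM in vector. KRT86 was the only one of the 10 whose line means spanned the 1 log2 unit required for this search on that scale. Adding 1 to FPKM compresses low values. KRT19, KRT81 and KRT83 fell short although their line means in FPKM differed by up to 18.0, 3.92 and 66.2 times. By FPKM ratio, KRT86 was 6.27 times as high in Q311E as in wild type. The same ratio was 4.10 for MVD, 3.91 for FDFT1 and 4.18 for IDI1. The likeness is a description over 6 points that share 3 lines.

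The 10 keratins made up a larger part of all keratin RNA in both MB21D2 lines than in vector, but the Q311E libraries disagreed. Summed over the 43 keratin genes in the table, FPKM was 1675 and 1373 in Q311E A and B, 1409 and 1442 in wild type, and 2096 and 2054 in vector. The 10 keratins held 62.2% and 44.4% of it in Q311E, 66.9% and 66.6% in wild type, and 28.2% and 28.8% in vector. Their own summed FPKM was 1042 and 610 in Q311E, 943 and 961 in wild type, and 591 and 592.5 in vector. In Q311E B the 10 thus held a larger share than in vector at nearly the same summed FPKM. KRT8 and KRT18 together held 48.0% and 34.3% in Q311E, 53.3% and 53.4% in wild type, and 21.3% and 22.3% in vector. The basal pair KRT5 and KRT14 held 28.2% and 42.3% in Q311E, 28.9% and 29.1% in wild type, and 61.2% and 60.05% in vector.

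The change in these shares came with the near absence of KRT14 from both MB21D2 lines. KRT14, the basal type I keratin, had 0.771 and 0.902 FPKM in Q311E, 2.08 and 2.35 FPKM in wild type, and 762 and 697 FPKM in vector. Its type II partner KRT5 had 473 and 579 FPKM in Q311E, 405 and 417 FPKM in wild type, and 522 and 537 FPKM in vector, and was called in no comparison (adjusted p = 0.939, 0.126 and 0.0962 for Q311E against vector, wild type against vector and Q311E against wild type). KRT18 made up 71.8% and 58.8% of type I keratin FPKM in Q311E, 87.4% and 87.3% in wild type, and 18.1% and 20.2% in vector. The ratio of summed type I to summed type II FPKM was 0.417 and 0.408 in Q311E, 0.393 and 0.394 in wild type, and 1.02 and 0.983 in vector. Type II sums lay between 975.1 and 1182 FPKM in all 6 libraries. These sums are of RNA and rest on the gene lengths used for FPKM.

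**Figure D4:**
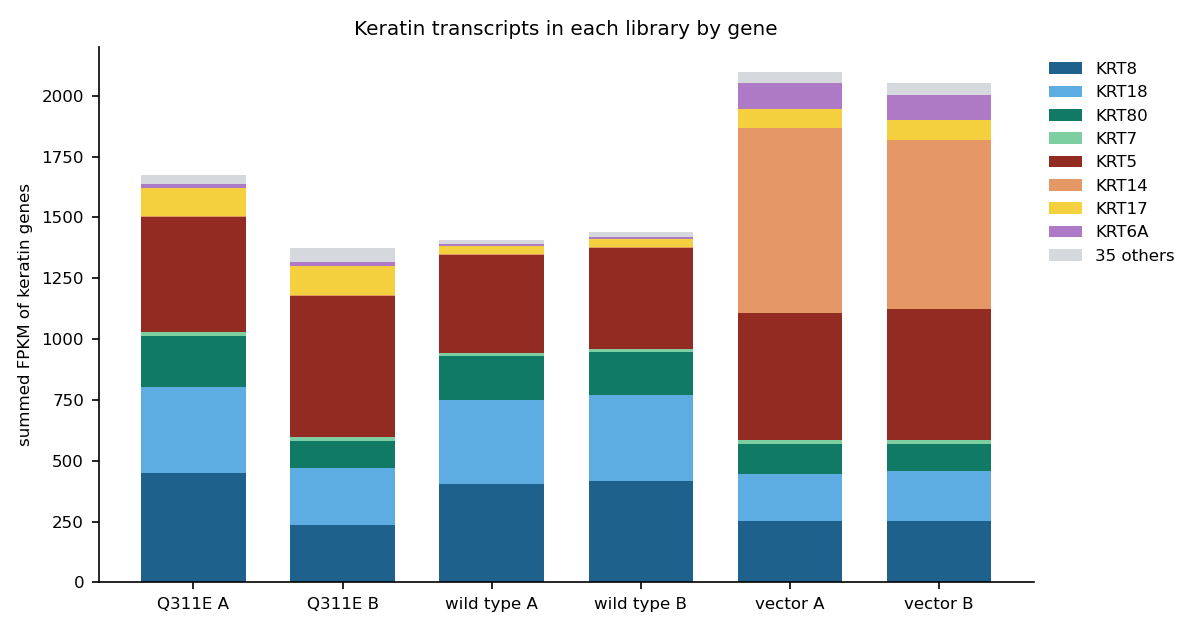
Summed FPKM of all keratin genes (vertical axis) in each of the 6 libraries (horizontal axis), stacked by gene, with the 35 genes not drawn singly shown together in light grey. KRT8, KRT18, KRT80 and KRT7 (blue and green) form the lower part, and hold nearly all of the 28.2% to 66.9% that the 10 keratins make up, and KRT14 (orange) is visible in the vector libraries only.

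Other keratins were read from lists drawn by family and function. Of 8 basal and stress keratins 7 were tested, with median log2 fold changes of -0.02 for Q311E against vector, -1.19 for wild type against vector and 0.80 for Q311E against wild type. The medians over all genes tested were 0.00, -0.05 and 0.05. In Q311E against vector KRT17 rose and KRT14 and KRT6A fell, in wild type against vector 4 fell (KRT14, KRT6A, KRT17 and KRT16), and in Q311E against wild type KRT17, KRT6A and KRT6B were higher and KRT14 lower, where 18.0%, 12.3% and 27.5% of all genes tested were called. KRT17, a type I keratin of wounded and tumour epithelium, had 119 and 122 FPKM in Q311E, 33.3 and 33.4 FPKM in wild type, and 75.1 and 79.3 FPKM in vector, the same order of lines as KRT86 (0.64 ± 0.07, adjusted p = 0.00845, for Q311E against vector). KRT6A, its type II counterpart in wounded epithelium, had 16.7 and 14.97 FPKM in Q311E, 7.90 and 9.49 FPKM in wild type, and 109 and 104 FPKM in vector (-2.68 ± 0.11, adjusted p = 0.00159, for Q311E against vector). KRT15, a basal type I keratin, had 5.09 and 22.2 FPKM in Q311E, 2.66 and 2.44 FPKM in wild type, and 6.09 and 8.80 FPKM in vector, and was not called. Like its neighbour KRT19 on chromosome 17, it was higher in Q311E B than in Q311E A.

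Apart from KRT10, the listed keratins of cornifying and other specialised epithelia were not in the table or too low to be tested. Of 23 listed, 14 were in the table and KRT10, the type I keratin of cornifying layers, was the single one tested. It had 9.36 and 12.8 FPKM in Q311E, 9.22 and 10.7 FPKM in wild type, and 18.9 and 21.6 FPKM in vector, and fell in Q311E against vector (-0.83 ± 0.16, adjusted p = 0.0275) and in wild type against vector (-0.95 ± 0.16, adjusted p = 0.0244). Of 14 other hair keratins 11 were in the table, all too low to be tested. The 21 genes whose symbols start with KRTAP include an antisense gene and a pseudogene. The rest code for keratin-associated proteins, the matrix proteins of the hair shaft. Of the 21, KRTAP2-3 alone was tested. It had 5.42 and 5.87 FPKM in Q311E, 1.20 and 1.23 FPKM in wild type, and 0.473 and 0.332 FPKM in vector. These came from 101 and 111 reads, 24 and 23 reads, and 10 and 6 reads, so the wild-type and vector levels rest on few reads. KRTAP2-3 rose in Q311E against vector (2.25 ± 0.11, adjusted p = 0.00177), in wild type against vector (0.66 ± 0.11, adjusted p = 0.0219) and in Q311E against wild type (1.58 ± 0.11, adjusted p = 0.00239). Wild type thus lay above vector for KRTAP2-3 and below it for KRT86 and KRT83.

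Keratin filaments are anchored at desmosomes by plakins. Of 15 tested plakins and desmosome partners, 2 rose and 2 fell in Q311E against vector, 1 rose and 2 fell in wild type against vector, and 2 were higher and 4 lower in Q311E against wild type, with medians of -0.06, 0.26 and -0.45. Of all genes tested, 18.0%, 12.3% and 27.5% were called in these comparisons. PLEC, the plakin plectin, which links keratin to hemidesmosomes and other filaments, had 46.8 and 22.8 FPKM in Q311E, 75.9 and 77.4 FPKM in wild type, and 39.1 and 29.7 FPKM in vector, and was lower in Q311E than in wild type (-1.20 ± 0.33, adjusted p = 0.0484). As for KRT8, Q311E A lay above Q311E B. DSP, which binds keratins to the desmosome, had 36.3 and 30.9 FPKM in Q311E, 43.5 and 49.2 FPKM in wild type, and 24.3 and 21.99 FPKM in vector, called in all 3 comparisons (0.52 ± 0.12, adjusted p = 0.038, for Q311E against vector, 0.97 ± 0.12, adjusted p = 0.0128, for wild type against vector, and -0.45 ± 0.12, adjusted p = 0.0406, for Q311E against wild type). The order of its line means was that of KRT8 and KRT18. JUP, the plakoglobin of the desmosomal plaque, had 90.4 and 114 FPKM in Q311E, 56.4 and 53.2 FPKM in wild type, and 75.3 and 86.8 FPKM in vector, and was higher in Q311E than in wild type (0.88 ± 0.14, adjusted p = 0.0138). The desmosomal cadherin DSG3 had 2.16 and 2.58 FPKM in Q311E, 2.34 and 2.07 FPKM in wild type, and 4.99 and 4.94 FPKM in vector, and fell in both comparisons with the vector (-0.83 ± 0.11, adjusted p = 0.0111, and -0.90 ± 0.11, adjusted p = 0.0123). DSC2 was higher in Q311E than in wild type (0.75 ± 0.11, adjusted p = 0.0126), PKP1 fell in Q311E against vector (-0.93 ± 0.12, adjusted p = 0.0112), and DSC3 fell in wild type against vector (-1.06 ± 0.24, adjusted p = 0.048).

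Other intermediate filament genes were led by the nuclear lamins. LMNA had 94.8 and 73.2 FPKM in Q311E, 136 and 137 FPKM in wild type, and 117.4 and 114.3 FPKM in vector, and was lower in Q311E than in wild type (-0.70 ± 0.13, adjusted p = 0.0203), as were LMNB2 (-0.66 ± 0.15, adjusted p = 0.0295) and IFFO2 (-0.55 ± 0.12, adjusted p = 0.0253), 3 of 5 tested where 27.5% of all genes were called. VIM, the intermediate filament of mesenchymal cells, had at most 0.0997 FPKM in any library.

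Among 16 tested transcription factors with known ties to keratin genes, 3 rose in Q311E against vector, 2 rose and 2 fell in wild type against vector, and 2 were higher in Q311E than in wild type, with medians of 0.19, 0.05 and 0.19. These counts stand beside 18.0%, 12.3% and 27.5% of all genes called. SOX9, a factor of hair follicle and glandular progenitors, had 21.7 and 12.5 FPKM in Q311E, 15.7 and 15.4 FPKM in wild type, and 5.17 and 3.64 FPKM in vector, and rose in both comparisons with the vector (1.71 ± 0.27, adjusted p = 0.0162, and 1.63 ± 0.27, adjusted p = 0.023). KLF4, a differentiation factor of stratified epithelia, had 18.5 and 17.2 FPKM in Q311E, 11.1 and 11.3 FPKM in wild type, and 7.74 and 6.56 FPKM in vector, called higher in all 3 comparisons (adjusted p = 0.00514, 0.0235 and 0.0137). TP63, the regulator of the basal layer, had 19.8 and 32.5 FPKM in Q311E, 14.8 and 14.5 FPKM in wild type, and 30.2 and 29.8 FPKM in vector, and fell in wild type against vector (-0.99 ± 0.22, adjusted p = 0.0448). TFAP2A rose in Q311E against vector (0.69 ± 0.12, adjusted p = 0.0203), and EHF fell in wild type against vector (-0.58 ± 0.09, adjusted p = 0.0194). Each line enters 2 of the 3 comparisons, so these share libraries.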

How the data were processed

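RNA of 6 CAL27 libraries, 2 in each of 3 lines, was analysed. The authors deposited FPKM values for 30178 human Ensembl genes, and no column of the table was left unused. The submitters' processing notes list CASAVA and, with no role stated, mm8 and mm9, which are mouse builds, although the gene identifiers are human. Which aligner, counter and annotation were used, and whether strand was, is not given in the sources used here.

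A name table matched 29993 identifiers, and positions, lengths and transcripts came from GENCODE release 29 (GRCh38). FPKM steps gave whole reads, within 0.001, for 30030 genes (99.51%), 22361 of them at the GENCODE length and the rest at a length fitted between 0.25 and 4 times it. KRT8, KRT19, KRT13, KRT81, KRT83 and KRT86 had whole reads at the GENCODE length and KRT18, KRT7, KRT80 and KRT4 at a fitted one. On the genes tested, limma-voom on those reads made 2102, 1307 and 3418 calls for Q311E against vector, wild type against vector and Q311E against wild type, and the FPKM fit 2061, 1412 and 3162.

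The fit was limma 3.58.1 (R 4.3.3, variance trend, 3 residual degrees of freedom) on log2(FPKM + 1) for the 11481 genes whose mean FPKM reached 1, all 3 lines together. The scale understates changes of low genes. Tests were two-sided with Benjamini-Hochberg adjustment over all genes tested, called under 0.05. Every adjusted p comes from limma. Read-ratio intervals are 95% exact binomial (scipy 1.17.1), and other tools were numpy 2.4.6, pandas 2.3.3, Biopython 1.88 and matplotlib 3.10.9.

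The named genes are the 10 keratins and, from each related list and comparison, up to 3 called members with the largest change, with KRT5, KRT14 and VIM always given and neighbours of the keratins on chromosomes 12 and 17. KRT15 and KRT16 were named after their values were seen. The keratins and lists were chosen with earlier results of these data known. Alternatives were another pseudocount, no or a stricter filter, median scaling, 2 lines in the fit, a replicate block, limma-voom and each library left out. Limma-voom on genes with at least 10 reads was chosen after seeing the data.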

Additional observations from a re-analysis of the deposited data

How the results depend on the processing

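The number of keratins called was 1 for Q311E against vector, 2 for wild type against vector and 2 for Q311E against wild type. Requiring a mean of 5 FPKM, which removes KRT86, left 0 (limma; 1 at an unadjusted p under 0.05, and none of the 4 genes left was called with limma-voom), 1 and 1. For wild type against vector it was 1 with no filter, 5 with only those lines in the fit and 4 with limma-voom on genes with at least 10 reads, and for Q311E against wild type 4 with the last. All genes called numbered 2061, 1412 and 3162, against 1210, 393 and 1608 with no filter and 262, 5273 and 973 with 2 lines in the fit. Leaving out 1 library each gave 0 to 4, 0 to 5 and 0 to 5 keratins, and 3 to 5683, 7 to 5262 and 0 to 6961 genes. The 0 genes came without wild type A or B, where 2878 and 2794 genes had an unadjusted p under 0.05. A line left with 1 library is assumed to vary like the others.

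Directions turned for 6 values of tested keratins when a library was left out, and for KRT13, too low to be tested, which differed by 0.03 between Q311E and wild type on log2(FPKM + 1) and by -0.446 in limma-voom (adjusted p = 0.781). With 1 library left out, the log2 fold change for Q311E against vector ranged from -0.094 (without Q311E A) to 0.835 for KRT8, from -0.06 (without Q311E A) to 0.841 for KRT80, and from -0.16 to 0.009 (without vector B) for KRT7. For Q311E against wild type it ranged from -0.789 to 0.141 for KRT8, from -0.583 to 0.009 for KRT18 and from -0.668 to 0.233 for KRT80, each positive without Q311E B. The cause was not tested. Of 234 values of single keratins under an alternative, 182 counted as unchanged. For the tested keratins this means the same direction and side of the threshold. For those too low to be tested it means a log2 difference within the SD between libraries of the main one. Without a filter their difference equals the main one by construction.

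The labels do not say whether the letters A and B pair libraries, and they were not taken as pairs, since the A minus B differences did not move together in every pair of lines: they correlated at 0.39 between Q311E and vector, -0.01 between Q311E and wild type and -0.03 between wild type and vector. With a replicate block 1942, 1299 and 3264 genes and 1, 2 and 2 keratins were called. Genes under about 100 reads (KRT4, KRT13, KRT19, KRT81 and KRT83) are limited by depth.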
